A study of Mus musculus with 6 samples.

Results

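The genes described here are *Tnfrsf10b*, which encodes the TRAIL receptor, and 9 further genes of the extrinsic death pathway, *Tnfsf10*, *Fas*, *Fasl*, *Tnfrsf1a*, *Tnfrsf1b*, *Fadd*, *Tradd*, *Casp8* and *Cflar*. They were taken by gene symbol from the 54532 genes of a read count table from mouse lung, in which each of the 10 symbols occurs once. The set was chosen by the measured genotype difference of *Tnfrsf10b*, which is therefore given as a description with no test, and was filled up with the ligands, receptors, adaptors, initiator protease and inhibitor around it by role. RNA had been sequenced from the lungs of 3 GRdim/dim and 3 GR+/+ mice, 1 library per mouse. GRdim/dim mice carry a point mutation in both copies of *Nr3c1*, the gene of the glucocorticoid receptor (GR), that impairs dimerization of the receptor in every cell of the body, and the GR+/+ mice were their wild-type littermates on the mixed strain 129/SvEv x C57BL/6. All 6 mice were 10 to 16 weeks old, anesthetized and ventilated, bled to a mean arterial pressure of 35 mmHg for 1 h (hemorrhagic shock, HS), given back their blood, and resuscitated for 4 h with colloids and norepinephrine before the lungs were taken. No lungs of mice without HS were among the libraries, so each difference is one between genotypes after HS. By the methods of the study, the GR+/+ lungs came from 2 females and 1 male and the GRdim/dim lungs from 1 female and 2 males, and which library is which is not labelled.

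The extrinsic pathway starts apoptosis from the cell surface. A ligand of the tumor necrosis factor family gathers receptors that carry a death domain, the adaptor FADD binds them directly or through TRADD, and FADD brings in caspase-8, which cuts itself and then proteins further down the pathway. The product of *Cflar*, c-FLIP, resembles caspase-8 without its activity and takes its place at FADD. In mice, *Tnfrsf10b* encodes the only death-domain receptor for TRAIL, while *Tnfrsf22*, *Tnfrsf23* and *Tnfrsf11b* encode receptors that bind TRAIL without passing on a death signal. In the lung, these genes are known from epithelial and endothelial cells and from leukocytes, and cytotoxic lymphocytes are the main source of FAS ligand.

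Total counts were 16361747 to 32082940 in GR+/+ and 15687734 to 24444604 in GRdim/dim libraries, and 16568 genes had enough reads to be tested between genotypes. Lung markers were detected throughout. The most abundant marker of club cells, *Scgb1a1*, had 23118 ± 2801 CPM (reads of a gene relative to all reads of its library) in GRdim/dim and 19696 ± 7049 CPM in GR+/+ lungs (n = 3 each, SD), and no marker in any of the 12 lists of lung and blood cell types was at 0 in all libraries. A gene was called where the adjusted *p*-value from edgeR's quasi-likelihood test was under 0.05 and the log2 fold change, GRdim/dim against GR+/+, lay beyond 0.5 in either direction. All 10 genes were tested. *Tnfrsf10b* is among the 28 genes, or 0.169% of all genes tested, that were called, which its choice from the same contrast fixes and from which nothing is read. Of the 9 others edgeR called 0, DESeq2 called 0, and 2 (*Fasl* and *Casp8*) had an unadjusted *p*-value under 0.05, both with higher levels in GRdim/dim lungs, where 9.6% of all genes tested were under it. The same 2 of these 9 had libraries that did not overlap between genotypes, as 14.8% of all genes tested did. The median log2 fold change of the 9 genes was 0.13, with 5 positive and 4 negative, and that of all genes tested was 0.01.

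**Figure D1:**
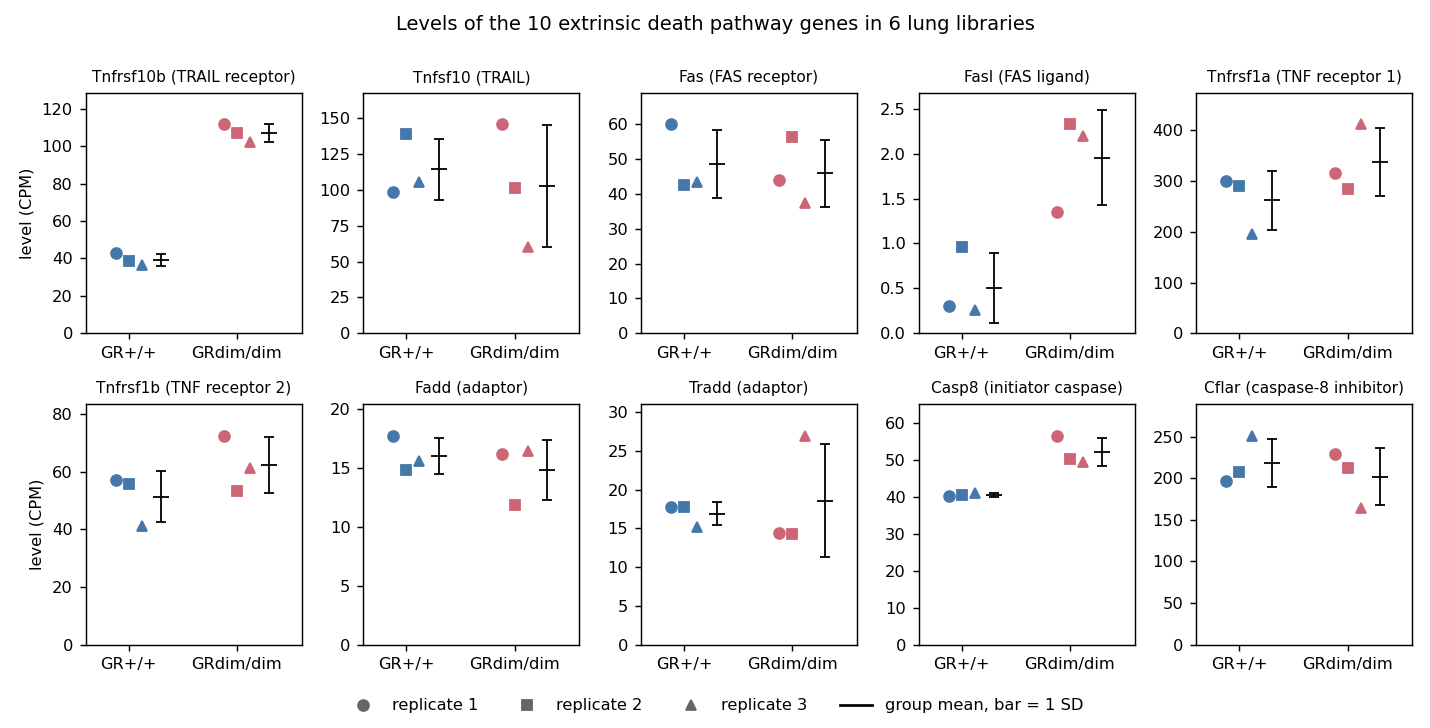
Levels of the 10 genes in CPM (vertical axes, from 0) in the 3 GR+/+ (blue) and 3 GRdim/dim (red) lung libraries, 1 point per library with its shape for the replicate number, and the group mean with a bar of 1 SD. *Tnfrsf10b*, *Fasl* and *Casp8* show no overlap between genotypes, and the other 7 genes do overlap.

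*Tnfrsf10b* (ENSMUSG00000022074) lies on the plus strand of GRCm38 at chr14:69767472-69784411. Its level was 111.6, 107.2 and 102.3 CPM in GRdim/dim replicates 1, 2 and 3. In GR+/+ replicates 1, 2 and 3 it was 42.7, 38.4 and 36.7 CPM. The lowest GRdim/dim library thus stood well above the highest GR+/+ library, and the libraries of a genotype lay close together, with a coefficient of variation of 4.35% in GRdim/dim and 7.94% in GR+/+ lungs. The mean was 107 ± 4.66 CPM against 39.3 ± 3.12 CPM (n = 3 each, SD), a 2.73-fold ratio of means, and the log2 fold change was 1.45 with a standard error (SE) of 0.15. Its biological variation in the edgeR fit was among the smallest, below that of all but 1.39% of the genes tested. The gene was chosen from these same values, so nothing is read from this small spread. The values rest on 640 to 2581 reads per library. Without any single library the log2 fold change lay between 1.40 and 1.52. Of the 31-base windows of its longest transcript, 16.3% also occur in other genes, with 2725 genes sharing at least 1 window. *Gm15574* shares the most (205 windows) and had 0 to 3 reads in any library. The reads of the other sharing genes were not examined. Summed markers of NK and T cells, given with *Fasl*, did not overlap between genotypes either, and their part in the difference of *Tnfrsf10b* was not tested.

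*Tnfrsf10b* had the highest log2 fold change of the 26 genes of the tumor necrosis factor receptor family that were tested, out of 28 taken by symbol. It was chosen for its difference in the same contrast, so nothing is read from this rank. The next were *Tnfrsf13c* with 1.32 and *Tnfrsf13b* with 0.80, which encode receptors for the B cell survival factor BAFF (SE 0.63 and 0.35). Next to *Tnfrsf10b* on the chromosome, *4930480K23Rik* ends 0.359 kb before it and had a log2 fold change of 0.17 (SE 0.35), and *Rhobtb2*, on the other strand, lies 0.579 kb beyond it with 0.24 (SE 0.19). Of the 14 genes tested within 500 kb, edgeR and DESeq2 called 0, and 1 had an unadjusted *p*-value under 0.05, where 9.6% of all genes tested did. The libraries of 2 of the 14 did not overlap between genotypes, where 14.8% of all genes did, so both counts are near the background. *Chmp7*, a gene of the membrane-remodeling ESCRT machinery, was at 75.2 ± 4.94 CPM in GRdim/dim and 63.5 ± 4.94 CPM in GR+/+ lungs, and *Pdlim2*, which encodes a PDZ and LIM domain protein, at 148 ± 44.5 and 221 ± 9.07 CPM (n = 3 each, SD). Their log2 fold changes were 0.24 (SE 0.15) and -0.58 (SE 0.21), and *Pdlim2* was the 1 gene with an unadjusted *p*-value under 0.05.

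**Figure D2:**
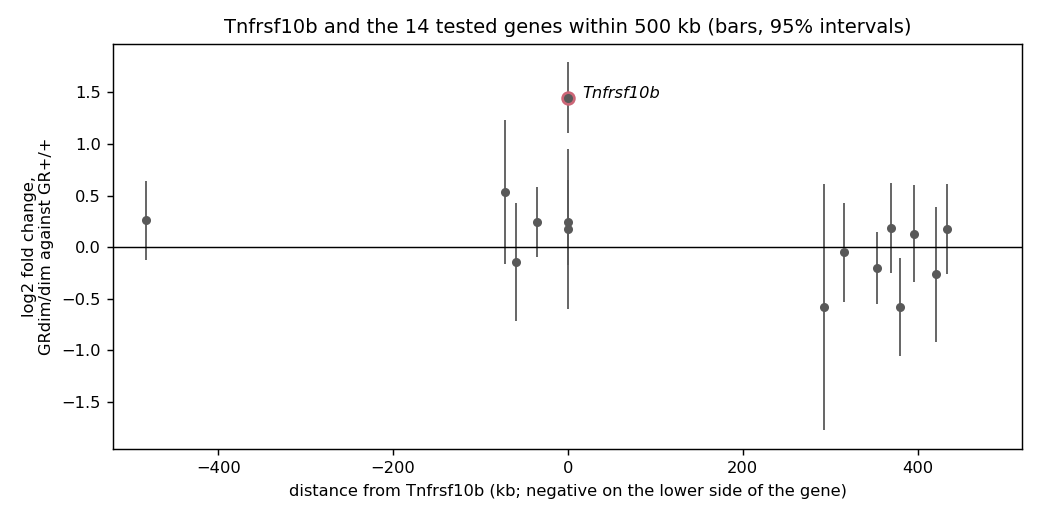
Log2 fold change between genotypes (vertical axis) of *Tnfrsf10b* (red ring) and of the 14 genes tested within 500 kb of it, against their distance from it in kb (horizontal axis, negative on the side of lower coordinates), with 95% intervals as bars. *Tnfrsf10b* stands at 1.45, and the others lie between -0.58 and 0.54.

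The genes whose level followed that of *Tnfrsf10b* most closely over the 6 libraries, among 14589 protein-coding genes compared, were *Ipmk*, *Pnp*, *Tpsb2*, *Armcx3* and *Cd86*, with a Pearson correlation of log2 CPM between 0.990 and 0.996. edgeR called none of these 5, and DESeq2 called *Pnp*. These values describe 6 libraries in 2 groups, and any gene with a clear genotype difference and little spread comes near 1. *Ipmk*, an inositol phosphate kinase gene, had 119 ± 1.26 CPM in GRdim/dim and 79.2 ± 3.85 CPM in GR+/+ lungs, and *Cd86*, a costimulatory molecule of antigen-presenting cells, 8.42 ± 0.201 and 4.36 ± 0.0678 CPM (n = 3 each, SD). *Tpsb2*, a mast cell tryptase gene, had 1.34 ± 0.167 and 0.295 ± 0.0599 CPM (n = 3 each, SD). Among the other genes of the pathway set, the same correlation was 0.95 for *Casp8* and 0.85 for *Fasl*, and it lay between -0.31 and 0.63 for the other 7.

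The ligand of the receptor, TRAIL, is encoded by *Tnfsf10* (chr3:27317028-27342427, plus strand). Its level was 145.7, 101.3 and 60.4 CPM in GRdim/dim and 98.6, 138.6 and 105.8 CPM in GR+/+ replicates 1, 2 and 3. The GRdim/dim libraries alone spanned more than the range of GR+/+, so the genotypes overlapped. The means were 102 ± 42.6 and 114 ± 21.3 CPM (n = 3 each, SD), with a log2 fold change of -0.16 (SE 0.28, 95% interval -0.78 to 0.47, edgeR adjusted *p* = 0.926) whose sign turned without GRdim/dim replicate 3 (0.11) or GR+/+ replicate 2 (0.01). Scaled by gene length, *Tnfrsf10b* stood at 0.419, 0.267 and 0.335 times the level of *Tnfsf10* in GR+/+ replicates 1, 2 and 3 and at 0.740, 1.02 and 1.63 times in GRdim/dim replicates 1, 2 and 3. With the deposited lengths, receptor mRNA was thus below ligand mRNA in all GR+/+ libraries and above it in 2 of the 3 GRdim/dim libraries. Which of them stands higher depends on the lengths used. The longest transcript of *Tnfrsf10b* has 3179 bases against a deposited length of 5451, and that of *Tnfsf10* has 4993 against 5266.

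The decoy receptors of TRAIL were low in all lungs. *Tnfrsf22* had 7.01, 4.90 and 4.97 CPM in GRdim/dim and 4.06, 3.54 and 2.92 CPM in GR+/+ replicates 1, 2 and 3, without overlap, and a log2 fold change of 0.69 (SE 0.30, edgeR unadjusted *p* = 0.0459, adjusted *p* = 0.505). *Tnfrsf23* and *Tnfrsf11b*, the gene of osteoprotegerin, stood at log2 fold changes of 0.10 (SE 0.34) and 0.32 (SE 0.37). edgeR and DESeq2 called 0 of the 3. Per length, *Tnfrsf10b* stood at 1.70 to 2.33 times the summed level of the 3 decoys in GR+/+ and at 3.42 to 5.12 times in GRdim/dim libraries. Like the ratio to the ligand, this comparison holds the difference of *Tnfrsf10b* itself and was not tested.

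**Figure D3:**
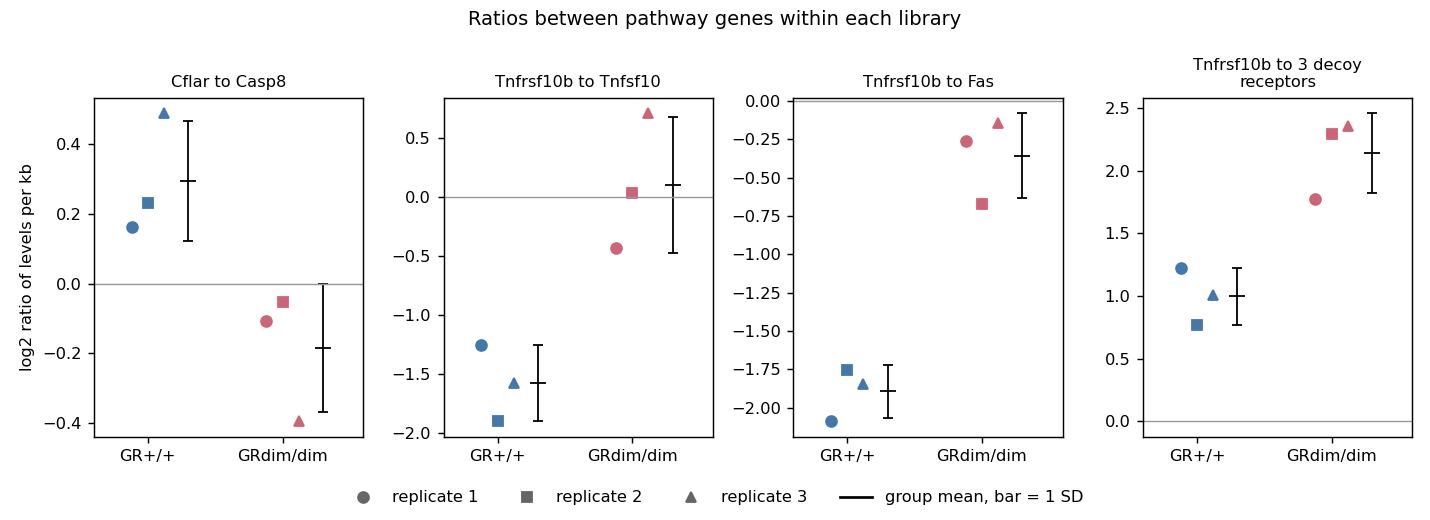
Log2 ratios of levels per kb (vertical axes, each with its own range) within each of the 3 GR+/+ (blue) and 3 GRdim/dim (red) libraries, with the group mean and a bar of 1 SD. The ratio of *Cflar* to *Casp8* lies between 0.16 and 0.49 in GR+/+ and between -0.39 and -0.05 in GRdim/dim libraries. The 3 ratios that contain *Tnfrsf10b* are all higher in GRdim/dim libraries. They hold the difference for which *Tnfrsf10b* was chosen, so nothing is read from this.

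The upstream sequences of 4 genes of the set are shown because GR acts on DNA and the mutation lies in its DNA-binding domain, and because these 4 either hold a motif of GR or of factors that work with it or, in the case of *Fasl*, have the largest log2 fold change of the set. They are RefSeq sequences of GRCm38.p6, up to 250 bases before the gene start, 5′ to 3′ on the strand of the gene, in lower case with motif letters in capitals. RefSeq windows of 300 bases around the start were matched for 8 of the 10 genes and searched on both strands for AGAACA (the hexamer of GR elements), the full palindrome of GR (AGAACA and TGTTCT with 3 free bases between them, which contains the hexamer on each strand), TTCNNNGAA (the gamma-activated site), an interferon-stimulated response element core (GAAA repeated after 2 free bases), an NF-kappaB site (GGGA and TTTCC with 1 free base between them) and TGACTCA (an AP-1 site).
Fas, chr19:34290409-34290658, plus strand: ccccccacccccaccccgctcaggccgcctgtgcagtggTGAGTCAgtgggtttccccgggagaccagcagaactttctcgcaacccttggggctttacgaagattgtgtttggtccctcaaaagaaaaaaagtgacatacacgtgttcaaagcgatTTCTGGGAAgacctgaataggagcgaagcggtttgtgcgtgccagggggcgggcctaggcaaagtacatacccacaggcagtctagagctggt
Fasl, chr1:161788496-161788745, minus strand: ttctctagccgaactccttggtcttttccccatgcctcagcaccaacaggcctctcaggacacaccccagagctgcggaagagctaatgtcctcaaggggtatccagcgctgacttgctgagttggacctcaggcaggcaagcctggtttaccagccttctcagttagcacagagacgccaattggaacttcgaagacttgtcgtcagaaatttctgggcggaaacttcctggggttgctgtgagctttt
Tnfrsf1b, chr4:145246871-145247120, minus strand: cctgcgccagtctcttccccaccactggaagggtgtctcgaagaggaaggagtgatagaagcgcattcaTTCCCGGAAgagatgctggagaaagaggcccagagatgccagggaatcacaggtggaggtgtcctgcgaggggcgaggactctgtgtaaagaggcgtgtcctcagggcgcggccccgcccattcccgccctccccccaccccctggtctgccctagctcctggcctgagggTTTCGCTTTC
Fadd, chr7:144582464-144582691, minus strand: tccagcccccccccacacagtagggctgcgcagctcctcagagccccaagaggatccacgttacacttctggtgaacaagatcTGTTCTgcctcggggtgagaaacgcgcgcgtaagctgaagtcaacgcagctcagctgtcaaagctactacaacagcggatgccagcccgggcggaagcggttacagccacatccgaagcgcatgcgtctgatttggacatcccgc
No window was matched for *Tnfrsf10b* or *Tradd*, so neither of them was searched. The hexamer AGAACA was found in 1 of the 8 windows, that of *Fadd*, 167 bases before the RefSeq start, where it reads TGTTCT on the strand shown, and 19.0% of all 32851 windows hold it. The full palindrome and the NF-kappaB letters were in none of the 8, and in 0.00913% and 0.411% of all windows. The gamma-activated letters were in 3 of the 8 (*Fas* at -93, *Tnfrsf1a* at -244, *Tnfrsf1b* at -181), against 8.30% of all windows, and the interferon element core in 2 (*Cflar*, *Tnfrsf1b* at -10), against 3.44%. AP-1 letters were in the window of *Fas* at -211, against 5.20% of all. The window of *Fasl* held none of the 6. For *Tnfrsf1a* and *Casp8* the windows lie inside the gene by the deposited coordinates. Their RefSeq starts are at 125349723 and 58802502, and their deposited first bases at 125349362 and 58795374. A match of letters is no measure of binding, and no match speaks only of these letters in this window.

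*Fas* (chr19:34290659-34327770, plus strand), the receptor of FAS ligand, was at 44.1, 56.4 and 37.3 CPM in GRdim/dim and 60.0, 42.7 and 43.5 CPM in GR+/+ replicates 1, 2 and 3. The ranges of the genotypes overlapped, with a log2 fold change of -0.08 (SE 0.21, 95% interval -0.56 to 0.39, edgeR adjusted *p* = 0.949) that turned to 0.05 without GRdim/dim replicate 3 and to 0.10 without GR+/+ replicate 1. With the deposited gene lengths, *Tnfrsf10b* had 0.235 to 0.297 times the level of *Fas* in GR+/+ and 0.628 to 0.905 times in GRdim/dim libraries. This ratio, too, holds the difference of *Tnfrsf10b* itself and was not tested. The deposited length of *Fas* was 1801 bases and its merged exons in the annotation GENCODE M21 have 2062. With the deposited length of *Tnfrsf10b* kept, *Fas* had the higher level per kb in 6 of 6 libraries by its own deposited length. By its annotated length this held in 5 of 6, the exception being GRdim/dim replicate 3 (18.1 CPM per kb for *Fas* and 18.8 for *Tnfrsf10b*). The other 9 genes had the same coordinates and length in the deposited counts and in GENCODE M21. The longest transcript of *Tnfrsf10b* has 3179 bases against a deposited length of 5451, and that of *Fas* has 1625 against 1801. Which of these 2 death receptors stands higher in GRdim/dim libraries thus depends on the lengths used.

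*Fasl* (chr1:161780689-161788495, minus strand) was the lowest gene of the set, with 25, 56 and 34 reads in GRdim/dim and 5, 16 and 8 reads in GR+/+ replicates 1, 2 and 3. These are 1.35, 2.33 and 2.20 CPM against 0.299, 0.959 and 0.254 CPM. All GRdim/dim libraries were above all GR+/+ libraries, and GR+/+ replicate 2 was the highest of its group. The log2 fold change was 2.0 (SE 0.57, 95% interval 0.74 to 3.27; edgeR unadjusted *p* = 0.00533, adjusted *p* = 0.289), and *Fasl* was not called. With low counts left unfiltered it was called (edgeR adjusted *p* = 0.0360, in a range from 0.0360 to 0.580 over 11 alternatives). That setting called 522 of 31368 genes, where the main fit called 28 of 16568. With any library left out the log2 fold change of *Fasl* lay between 1.63 and 2.82. Marker genes of NK and T cells, which include the cytotoxic lymphocytes, also had higher levels in the GRdim/dim libraries. The summed level of 6 NK cell markers was 18.1 to 28.0 CPM in GRdim/dim and 6.04 to 16.3 CPM in GR+/+ libraries, and that of 6 T cell markers 32.1 to 40.2 and 13.8 to 28.3 CPM, neither with overlap. All 12 of these markers had a positive log2 fold change, and 5 of them had an unadjusted *p*-value under 0.05, beside 9.6% of all genes tested. edgeR called 0 of the 12, DESeq2 called 1 (*Trac*), and none was at 0 in all libraries. Of all 16150 genes that it tested, DESeq2 called 274. The most abundant were *Gzma*, the gene of granzyme A, with 11.2 ± 2.18 and 5.64 ± 2.73 CPM, and *Trac*, the constant part of the T cell receptor alpha chain, with 9.58 ± 1.95 and 3.86 ± 1.80 CPM (n = 3 each, SD). Divided by the sum of all 12, *Fasl* was 0.0241, 0.0342 and 0.0377 in GRdim/dim and 0.0151, 0.0215 and 0.00926 in GR+/+ replicates 1, 2 and 3. These values did not overlap between genotypes. Divided by the NK cell markers alone, *Fasl* was 0.0564 to 0.121 and 0.0200 to 0.0588, which overlap. Whole lung does not tell more cells of a type from more RNA per cell, and the part of lymphocyte number in the *Fasl* difference was not tested. Markers of other blood cells were on the same side. All 5 B cell markers had a positive log2 fold change, 3 of them had an unadjusted *p*-value under 0.05, and edgeR and DESeq2 called 0. All 6 neutrophil markers were positive too, with 2 at an unadjusted *p*-value under 0.05, 0 called by edgeR and 1 (*Retnlg*) by DESeq2. The counts under 0.05 in both lists stand beside the same 9.6% of all genes tested. The median log2 fold change was 1.01 for NK cell, 0.96 for T cell, 1.03 for B cell and 0.82 for neutrophil markers. The summed levels of the B cell markers (54.1 to 84.1 and 22.9 to 54.7 CPM) and neutrophil markers (343 to 1095 and 248 to 484 CPM) overlapped between genotypes, and their part in the results was not tested.

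**Figure D4:**
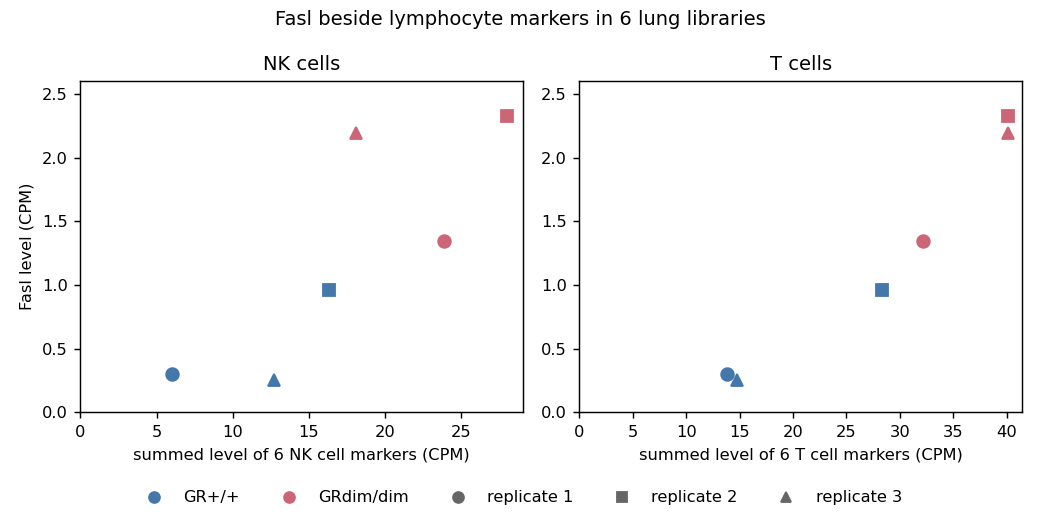
Level of *Fasl* in CPM (vertical axes) against the summed level of 6 NK cell markers (left) and 6 T cell markers (right) in CPM (horizontal axes), 1 point per library, GR+/+ in blue and GRdim/dim in red, with shapes for the replicate number. The 3 GRdim/dim libraries are higher on all axes than the 3 GR+/+ libraries, and GR+/+ replicate 2 lies nearest to them.

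The receptors of tumor necrosis factor differ in that TNF receptor 1, from *Tnfrsf1a* (chr6:125349362-125362484, plus strand), carries a death domain and TNF receptor 2, from *Tnfrsf1b* (chr4:145213463-145246870, minus strand), does not. *Tnfrsf1a* was at 316.5, 283.9 and 411.8 CPM in GRdim/dim and 300.8, 290.7 and 194.8 CPM in GR+/+ replicates 1, 2 and 3. *Tnfrsf1b* was at 72.5, 53.2 and 61.2 CPM in GRdim/dim and 57.0, 55.7 and 41.2 CPM in GR+/+ replicates 1, 2 and 3. For both, GR+/+ replicate 3 was the lowest library and the genotypes overlapped. The log2 fold changes were 0.36 (SE 0.22, 95% interval -0.13 to 0.86, edgeR adjusted *p* = 0.673) and 0.28 (SE 0.19, 95% interval -0.15 to 0.71, edgeR adjusted *p* = 0.716). The ratio of *Tnfrsf1b* to *Tnfrsf1a* per length was 0.101 to 0.155 in GRdim/dim and 0.129 to 0.143 in GR+/+ libraries (two-sided exact permutation test of the log2 ratio, *p* = 0.7). *Tnf*, which encodes their ligand, was at 1.31 ± 0.260 CPM in GRdim/dim and 1.73 ± 0.633 CPM in GR+/+ lungs (n = 3 each, SD), and *Lta*, the gene of lymphotoxin alpha, had too few reads to be tested.

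For both adaptors the genotypes overlapped. *Fadd* (chr7:144577318-144582463, minus strand), which links death domains to caspase-8, had 16.2, 11.9 and 16.5 CPM in GRdim/dim and 17.7, 14.8 and 15.6 CPM in GR+/+ replicates 1, 2 and 3. Its log2 fold change was -0.11 (SE 0.22, 95% interval -0.60 to 0.38, edgeR adjusted *p* = 0.934), and 0.03 without GRdim/dim replicate 2, its lowest library. The antisense gene *Faddos* overlaps 239 bases of its exons with 0 to 8 reads per library, and reads of the pair cannot be told apart if strand was not used. *Tradd*, the adaptor of TNF receptor 1, lies on the minus strand at chr8:105258286-105264609. It had 14.4, 14.3 and 27.0 CPM in GRdim/dim and 17.7, 17.7 and 15.2 CPM in GR+/+ replicates 1, 2 and 3. GRdim/dim replicate 3 was alone at the top, while the other GRdim/dim libraries were below all of GR+/+. The log2 fold change of 0.13 (SE 0.27, 95% interval -0.47 to 0.74, edgeR adjusted *p* = 0.936) turned to -0.23 without that library.

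*Casp8* (chr1:58795374-58847503, plus strand) encodes the initiator caspase of the pathway. It had 56.5, 50.3 and 49.3 CPM in GRdim/dim and 40.0, 40.3 and 40.9 CPM in GR+/+ replicates 1, 2 and 3. The GR+/+ libraries were nearly equal, with a coefficient of variation of 1.05%, and all GRdim/dim libraries lay above them. The means of 52.0 ± 3.9 and 40.4 ± 0.426 CPM (n = 3 each, SD) gave a log2 fold change of 0.36 (SE 0.16, 95% interval 0.01 to 0.72, edgeR unadjusted *p* = 0.0442, adjusted *p* = 0.50). It was not called, and it had libraries without overlap and an unadjusted *p* at a level that 14.8% and 9.6% of all genes reached. Leaving out any library left the log2 fold change between 0.31 and 0.40. Of the windows of its longest transcript 10.1% occur in other genes too, mostly *Gm20257*, which had 29 to 83 reads per library.

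*Cflar* (chr1:58711508-58758884, plus strand), a neighbour of *Casp8* on the chromosome and the gene of its inhibitor, was at 229.5, 212.2 and 164.4 CPM in GRdim/dim and 196.2, 207.6 and 251.3 CPM in GR+/+ replicates 1, 2 and 3. The genotypes overlapped, with replicate 3 at the low end in GRdim/dim and at the high end in GR+/+. Its log2 fold change was -0.11 (SE 0.19, 95% interval -0.53 to 0.31, edgeR adjusted *p* = 0.921), and it came to 0.02 without GRdim/dim replicate 3 and to 0.00 without GR+/+ replicate 3. The ratio of *Cflar* to *Casp8*, both read in the same library so that library scaling cancels, was 0.928, 0.964 and 0.761 per length in GRdim/dim and 1.12, 1.17 and 1.40 in GR+/+ replicates 1, 2 and 3. With the deposited lengths, inhibitor mRNA was thus below caspase mRNA in all GRdim/dim and above it in all GR+/+ libraries. The mean log2 ratio was -0.19 ± 0.18 in GRdim/dim and 0.29 ± 0.17 in GR+/+ lungs (n = 3 each, SD), a difference of -0.48 (two-sided exact permutation test, *p* = 0.1, the smallest that 3 against 3 allow). Whether *Cflar* or *Casp8* lies above the other depends on the gene lengths used, but the difference between genotypes does not. The longest transcript of *Cflar* has 6572 bases against a deposited length of 12669, and that of *Casp8* has 2585 against 2893. With 1 library left out the difference was -0.55 to -0.38, where the smallest possible *p* is 0.2. For the longest *Cflar* transcript this share of windows was 13.5%.

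Over all 6 libraries, the levels per length followed the order *Tnfrsf1a*, *Fas*, *Tnfsf10*, *Cflar*, *Casp8*, *Tnfrsf1b*, *Tnfrsf10b*, *Tradd*, *Fadd* and *Fasl*. *Tnfrsf1a*, with a mean of 115.7 CPM per kb, stood above *Fas* (26.3 CPM per kb) in 6 of 6 libraries, *Tradd* (9.50) above *Fadd* (3.96) in 6 of 6, and *Fadd* above *Fasl* (0.635) in 6 of 6. The ranges of all other neighbours in this order overlapped. *Tnfrsf10b* had 19.6 ± 0.855 CPM per kb in GRdim/dim and 7.20 ± 0.572 CPM per kb in GR+/+ lungs (n = 3 each, SD). With the deposited lengths, it was thus near *Tnfsf10* (19.5 ± 8.10 CPM per kb) in GRdim/dim lungs and below *Tradd* (9.05 ± 0.793 CPM per kb) in GR+/+ lungs. The longest transcript of *Tnfrsf10b* has 3179 bases against the deposited 5451, and that of *Cflar* has 6572 against 12669. The places of both in this order depend on the length used.

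The rest of the death pathway was read from 7 lists by role, with 43 genes of which 42 were tested. Of the 42, edgeR and DESeq2 called 0, and 3 had an unadjusted *p*-value under 0.05, 2 with higher (*Tnfrsf22*, *Birc2*) and 1 with lower level (*Faim2*), beside 9.6% of all genes tested. Their median log2 fold change was 0.05, with 24 positive and 18 negative. Of the 42, 2 higher (*Tnfrsf22*, *Birc2*) and 3 lower genes (*Traf1*, *Tnfaip3*, *Faim2*) had libraries without overlap, beside 14.8% of all genes tested. In the receptor complex, *Birc2*, which encodes the ubiquitin ligase cIAP1, had 83.1 ± 8.48 CPM in GRdim/dim and 65.2 ± 4.77 CPM in GR+/+ lungs (n = 3 each, SD), a log2 fold change of 0.35 (SE 0.16, edgeR unadjusted *p* = 0.0496, adjusted *p* = 0.520). *Traf1*, a signaling adaptor, and *Tnfaip3*, which encodes the ubiquitin-editing enzyme A20, had libraries that were all lower in GRdim/dim, with log2 fold changes of -0.26 and -0.20 (SE 0.16 each) and edgeR unadjusted *p*-values of 0.133 and 0.237. The most abundant gene of this list, *Tab2*, had 200 ± 52.6 and 166 ± 9.13 CPM (n = 3 each, SD).

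*Faim2*, an inhibitor of FAS signaling known mainly from neurons, had 7.06, 12.3 and 13.8 CPM in GRdim/dim and 15.5, 37.1 and 19.2 CPM in GR+/+ replicates 1, 2 and 3. All GRdim/dim libraries were below all GR+/+ libraries, with a log2 fold change of -1.11 (SE 0.36, 95% interval -1.91 to -0.32, edgeR unadjusted *p* = 0.0106, adjusted *p* = 0.359). *Pea15a*, which encodes a small protein that binds FADD and caspase-8, was the most abundant of this list at 180 ± 29.9 and 176 ± 18.2 CPM (n = 3 each, SD). Downstream of caspase-8, none of 10 genes had an unadjusted *p*-value under 0.05 or libraries without overlap, their log2 fold changes lay between -0.16 (*Xiap*) and 0.35 (*Bid*), and edgeR and DESeq2 called 0. The most abundant of them, *Xiap*, an inhibitor of apoptosis, had 142 ± 29.2 CPM in GRdim/dim and 159 ± 20.5 CPM in GR+/+ lungs (n = 3 each, SD). The necroptosis genes *Ripk3*, *Mlkl* and *Zbp1* stood at log2 fold changes of 0.15 (SE 0.26), 0.46 (SE 0.32) and 0.79 (SE 0.46). For *Mlkl* and *Zbp1* the highest value was that of GRdim/dim replicate 1, with 20.8 and 19.4 CPM against at most 10.6 and 7.79 CPM in all other libraries. edgeR and DESeq2 called 0 of the 3.

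**Figure D5:**
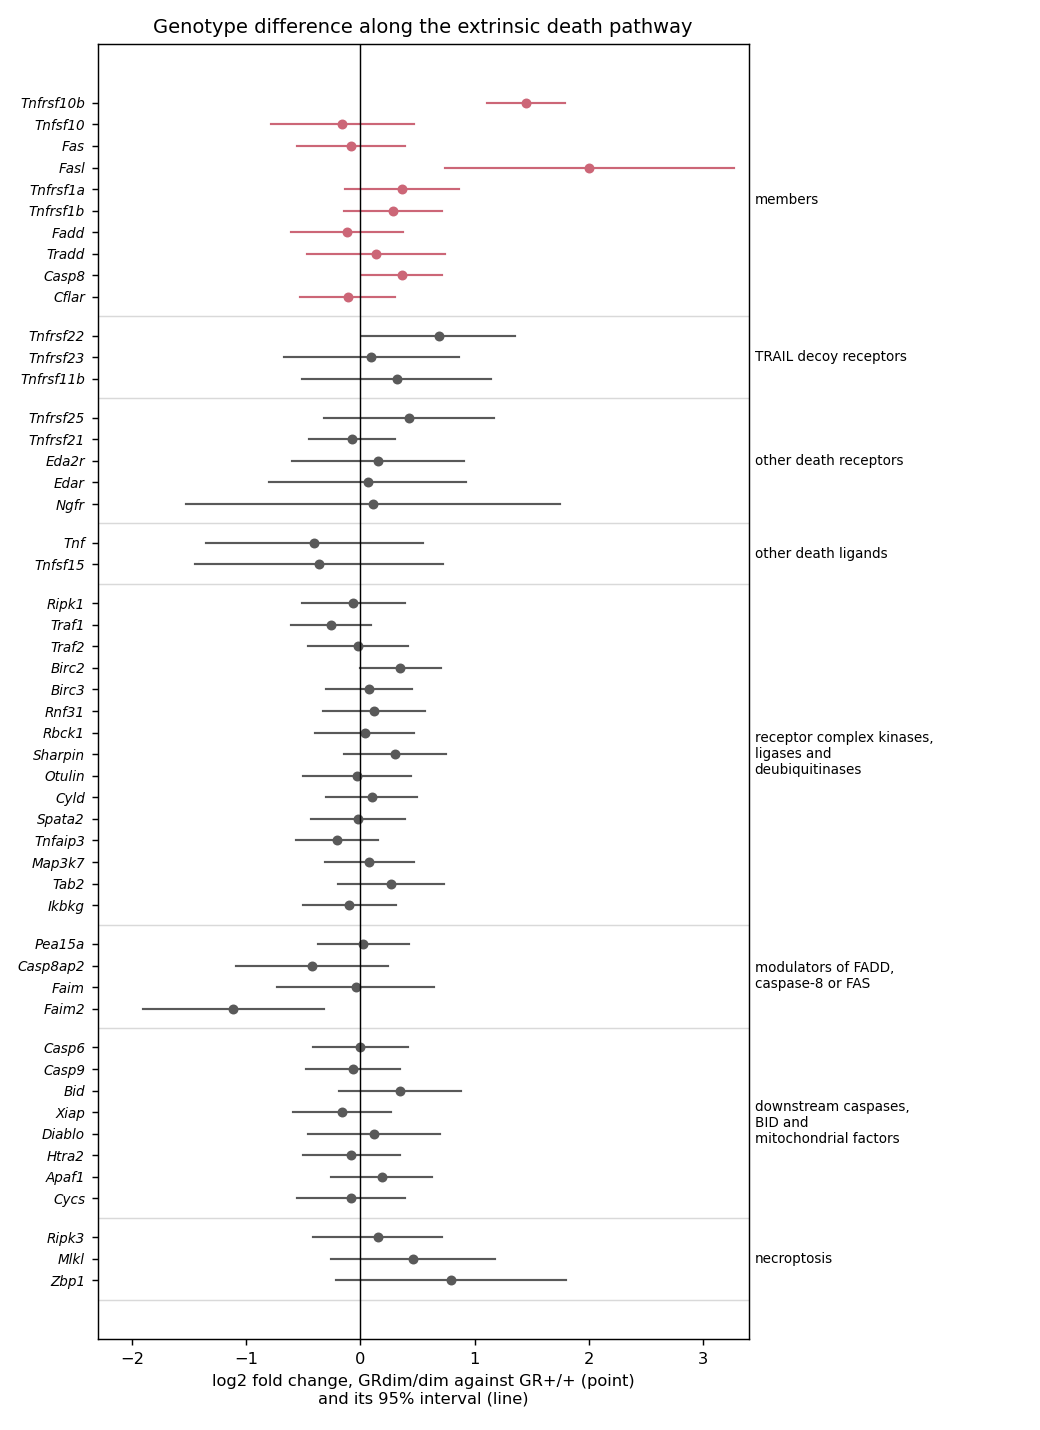
Log2 fold change between genotypes (horizontal axis, points) with its 95% interval (lines) for the 10 genes of the set (red) and 40 of the 42 tested genes of 7 further lists of the death pathway (grey), grouped by role. *Tnfrsf10b*, *Fasl*, *Casp8*, *Tnfrsf22* and *Birc2* have intervals above 0 and *Faim2* has its interval below 0, without adjustment for the number of genes.

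*Tnfrsf10b* is known as a target of p53, of the endoplasmic reticulum (ER) stress response and of NF-kappaB, and TRAIL as an interferon-induced gene, so other target genes of these pathways were read beside them. Of 14 p53 target genes, 1 was higher (*Plk2*) and 1 lower (*Trp53inp1*) at an unadjusted *p*-value under 0.05, and the median log2 fold change was -0.08. *Trp53inp1*, which encodes a stress-induced nuclear protein, had 116 ± 10.52 CPM in GRdim/dim and 148 ± 5.18 CPM in GR+/+ lungs (n = 3 each, SD), a log2 fold change of -0.35 (SE 0.15, edgeR adjusted *p* = 0.50). Of 12 ER stress genes, 1 was higher at an unadjusted *p*-value under 0.05 (*Xbp1*, a transcription factor of that response, log2 fold change 0.73, SE 0.27), and the median was 0.02. Of 10 NF-kappaB target genes none was under it, and the median was -0.07. In each of these 3 lists edgeR and DESeq2 called 0. Of all genes tested, 9.6% had an unadjusted *p*-value under 0.05.

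Of 12 interferon-induced genes, 11 had a positive log2 fold change, with a median of 0.61, where that of all genes tested was 0.01. Of the 12, 3 were higher at an unadjusted *p*-value under 0.05, beside 9.6% of all genes tested in either direction. edgeR called 0 of them and DESeq2 called 2, *Irf7* and *Isg15*, beside 274 of all 16150 genes that DESeq2 tested. *Irf7*, a transcription factor of the interferon response, had 69.3, 24.4 and 34.1 CPM in GRdim/dim and 17.6, 19.8 and 16.2 CPM in GR+/+ replicates 1, 2 and 3. Its log2 fold change was 1.25 (SE 0.34, edgeR unadjusted *p* = 0.00372, adjusted *p* = 0.253). *Isg15*, a ubiquitin-like protein gene, had a log2 fold change of 1.17 (SE 0.35, edgeR adjusted *p* = 0.306) and *Psmb8*, an immunoproteasome subunit gene, 0.62 (SE 0.22, edgeR adjusted *p* = 0.417). GRdim/dim replicate 1 was the highest of all libraries for this list except *Irf1* and *Psmb8*, which were highest in GRdim/dim replicate 3. *Tnfsf10* and *Tnfrsf10b* were also highest in GRdim/dim replicate 1, *Tnfrsf10b* at 111.6 CPM against 107.2 and 102.3 CPM in the other GRdim/dim libraries. Any relation of *Tnfsf10* or *Tnfrsf10b* to the interferon-induced genes was not tested.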

How the data were processed

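Lung RNA was captured by poly(A) and sequenced as 1 library per mouse. The counts deposited by the authors are whole reads per gene, not normalized or pooled. The submitters' processing notes name the build mm10 and DESeq2, and coordinates follow GRCm38. The aligner, counter and use of strand are not given in the sources used here. Replicates of each genotype deviated beyond counting noise (chi-square 19.2 to 62.9 per degree of freedom) and were used as separate replicates. edgeR 4.0.16 under R 4.3.3 tested the counts (filterByExpr, TMM, robust glmQLFit and glmQLFTest, Benjamini-Hochberg over 16568 genes), tested on simulated data, and with DESeq2 1.42.0 as an alternative. CPM values were scaled by TMM, levels per length were divided by the deposited gene length, and log2 correlations used a prior count of 2. Exact permutation tests enumerated 20 assignments of the 6 libraries.

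The genes of the set, the lists and the alternatives were chosen with earlier results of these data known. Genes named were all of the set, per list up to 5 without overlap between genotypes and the most abundant, the 5 most correlated with *Tnfrsf10b*, and those within 500 kb of it. Other genes (such as *Plk2*, *Xbp1*, *Zbp1* and those of the receptor family) were named after their values were seen. A few genes of the lists are not reported here by name. At this depth the spread between mice limits precision for all of the set but *Fasl*, where 5 to 56 reads also do.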

Additional observations from a re-analysis of the deposited data

How the results depend on the processing

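The limit is 3 mice per genotype. edgeR called 28 of 16568 genes, but 522 of 31368 without a filter on low counts, 274 with DESeq2, and 4 to 22 with each library left out. Of the 10 death pathway genes 1 was called, but 2 without the filter (*Fasl* was added) and 0 to 1 with each library left out (0 without GR+/+ replicate 2). The 1 is *Tnfrsf10b*, for which the set was chosen from the same contrast, so its calls support nothing. Of the 86 tested genes of the further lists 0 were called by edgeR (9 at an unadjusted *p*-value under 0.05, beside 9.6% of all genes tested), but 5 without the filter (*Faim2*, *Ifit1*, *Irf7*, *Isg15* and *Xbp1*) and 2 with DESeq2. Under no filter far more genes of low counts enter the fit, and the cause of the other changes was not tested. With at least 10 counts in every library, *Fasl* was not tested.

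The sign of the log2 fold change turned without GRdim/dim replicate 3 for *Tnfsf10* (0.11), *Fas* (0.05), *Tradd* (-0.23) and *Cflar* (0.017), without GRdim/dim replicate 2 for *Fadd* (0.026), and without a GR+/+ library for *Tnfsf10* (0.0084, replicate 2), *Fas* (0.10, replicate 1) and *Cflar* (0.0011, replicate 3). With each library left out in turn, the log2 fold changes ranged from -0.49 to 0.11 for *Tnfsf10*, -0.26 to 0.10 for *Fas*, -0.19 to 0.026 for *Fadd*, -0.23 to 0.30 for *Tradd* and -0.21 to 0.017 for *Cflar*. Of 119 single-gene comparisons with an alternative, 109 kept their sign and their side of the threshold. With the annotated length of *Fas*, an alternative chosen after seeing the data, *Fas* stood above *Tnfrsf10b* per kb in 5 of 6 libraries in place of 6. The length of *Tnfrsf10b* was not varied in this comparison. The log2 fold change of *Tnfrsf10b* was 1.40 to 1.52 over all 12 alternatives and 1.42 with a covariate for Y-linked expression, and the *Cflar* to *Casp8* difference was -0.55 to -0.38 with each library left out.

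The replicate numbers were checked for pairing. Deviations of same-numbered libraries correlated at 0.22, 0.04 and -0.05, and those of differently numbered libraries at -0.27 to 0.19. So few libraries cannot exclude pairing, and the main test used none. With the replicate number as a block, 34 genes, 1 gene of the set and 0 genes of the lists were called, and the *Cflar* to *Casp8* difference was -0.48 (exact sign-flip test, *p* = 0.25, the smallest possible).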
